A study of Homo sapiens with 4 samples.

Results

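Genes of the NRF2 antioxidant programme and the AKR1C aldo-keto reductases were described in endometrial cancer cells in which Efp was silenced. The 10 genes were AKR1C1, AKR1C2, AKR1C3, NQO1, GCLC, GCLM, SRXN1, TXNRD1, GSR and HMOX1, out of 18417 genes measured. They were selected on the Ishikawa values themselves, because AKR1C2 was more than 2-fold higher with siEfp and GCLC, SRXN1 and GSR were also higher, and each had to have a probe set with exactly 1 gene symbol. Their Ishikawa differences are therefore given as a description, without a test.

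Efp, the product of TRIM25, is an estrogen-responsive RING finger ubiquitin ligase, and the study asked what its loss does to endometrial cancer cells. The 4 arrays were Ishikawa siEfp, Ishikawa siControl, HEC-1A siEfp and HEC-1A siControl, with 1 array for each. Ishikawa is an ERα-positive line of a well-differentiated endometrial adenocarcinoma, and HEC-1A is an ERα-negative endometrial cancer line. Both were grown in DMEM with 10% fetal bovine serum and transfected with an siRNA against Efp or a non-targeting control siRNA, and biotin-labelled cRNA was made from 150 ng of total RNA. According to the methods, the Ishikawa cells received the duplex siEfp #A for 48 h. For the HEC-1A arrays neither duplex nor time could be found in the labels or methods. Each line is a single cell line and each condition a single array, so a difference between siEfp and siControl within a line has no replicate error. Values are log2 probe set signals, and a difference of 1 is a 2-fold difference.

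The target of the siRNA was lower in both siEfp arrays. TRIM25 had a log2 signal of 7.96 in siEfp and 9.42 in siControl Ishikawa cells, a difference of -1.46 or 2.75-fold lower. In HEC-1A cells it had 7.93 in siEfp and 9.50 in siControl, a difference of -1.57 or 2.97-fold lower. The array medians over all probe sets were 5.69 and 5.67 in siEfp and siControl Ishikawa cells, and 5.63 in both HEC-1A arrays. Of the epithelial markers 11 of 13 were measured, and in Ishikawa all 11 lay above the median gene signal of 6.31, while in HEC-1A 5 did. CDH1, which encodes E-cadherin, held the lowest signal of the 11 in HEC-1A. It was at 3.74 in siEfp and 4.07 in siControl HEC-1A cells, near the low end of all genes. PAX8 was at 9.88 in siEfp and 10.17 in siControl HEC-1A cells, and the brightest of the 11 reached 11.77 there. Stromal, endothelial and immune markers were mostly below the median gene signal, with 1 of 10, 0 of 8 and 0 of 10 above it in Ishikawa and 2 of 10, 0 of 8 and 1 of 10 in HEC-1A. Epithelial markers also differed with siEfp, with a median of -0.21 in Ishikawa and of -0.28 in HEC-1A, and 9 of 11 were lower in each line. The sum of their linear signals was 14938 in siEfp and 16853 in siControl Ishikawa cells, and 6974 in siEfp and 8261 in siControl HEC-1A cells. Their part in the values below was not tested.

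NRF2, encoded by NFE2L2, is a transcription factor that KEAP1 holds for ubiquitination by a cullin ligase containing CUL3 and RBX1. Oxidants and electrophiles modify KEAP1, after which NRF2 accumulates, pairs with a small MAF protein and binds the antioxidant response element in front of genes that make glutathione, reduce thioredoxin and detoxify quinones. The AKR1C enzymes are NADPH-dependent ketosteroid reductases that are also NRF2 targets in human cells. In the endometrium they set the local supply of active steroids, since AKR1C1 inactivates progesterone, AKR1C2 inactivates dihydrotestosterone and AKR1C3 makes testosterone and estradiol from their keto precursors.

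AKR1C1, AKR1C2 and AKR1C3 lie next to each other on chromosome 10, in a cluster that runs AKR1E2, AKR1C6P, AKR1C1, AKR1C2, AKR1C3, AKR1C8, AKR1C4 and AKR1C7P, and they are near copies. Stretches before their starts are shown to let their likeness be read. In the RefSeq windows that cover 250 bases before and 50 bases after each start (GRCh38.p14), AKR1C2 matched AKR1C1 at 288 of 292 aligned bases, or 98.6%. AKR1C3 matched AKR1C1 at 233 of 288 aligned bases, or 80.9%, and AKR1C4 at 211 of 268, or 78.7%. The stretches below, 5′ to 3′ on the strand of each gene, lie before the starts of the genes, at chr10:4963305-4963404 (plus strand) for AKR1C1, chr10:5003872-5003971 (minus strand) for AKR1C2 and chr10:5048675-5048771 (plus strand) for AKR1C3. Capitals mark the bases that differ from AKR1C1 in the alignment.
AKR1C1: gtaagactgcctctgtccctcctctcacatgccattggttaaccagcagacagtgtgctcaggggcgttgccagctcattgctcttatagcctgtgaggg
AKR1C2: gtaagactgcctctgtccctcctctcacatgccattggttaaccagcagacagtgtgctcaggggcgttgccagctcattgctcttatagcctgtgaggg
AKR1C3: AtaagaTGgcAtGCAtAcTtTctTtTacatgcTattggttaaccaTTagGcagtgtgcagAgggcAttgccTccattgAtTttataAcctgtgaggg
The 100 bases of AKR1C1 and AKR1C2 were identical, and 22 of the 97 bases of AKR1C3 differed. These bases lie before the starts, and neither transcripts nor probes were compared. Whether probes for one of these near copies also bind the transcripts of another was not tested.

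The core of the antioxidant response element, TGACNNNGC, was searched on both strands of the windows. A window was at hand for 8 of the 10 genes, all but GSR and HMOX1, with 10 windows in all. Of these windows 3, belonging to GCLM and TXNRD1, held a match. Over all 35116 windows of the same length, 4687 held a match, or 13.3%. The matching stretches are shown with the motif in capitals, read on the strand of the gene, at chr1:93909431-93909490 (minus strand) for GCLM, chr12:104215655-104215714 (plus strand) for TXNRD1 and chr12:104286905-104286964 (plus strand) for a second start of TXNRD1.
GCLM: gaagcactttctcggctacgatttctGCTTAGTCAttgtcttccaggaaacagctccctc
TXNRD1: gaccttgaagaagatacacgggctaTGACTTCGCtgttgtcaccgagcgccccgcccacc
TXNRD1, second start: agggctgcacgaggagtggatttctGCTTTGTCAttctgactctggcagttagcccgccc
In the GCLM stretch and in that of the second TXNRD1 start the motif shown ran on the opposite strand, so the capitals there spell its reverse complement. The motif lay 34 bases before the start of GCLM, and 99 and 102 bases before the starts of TXNRD1. The first TXNRD1 window held a further match on the opposite strand, 8 bases before the start, which is not shown. A match is a description of the letters, not a binding site. Bases further than 250 before a start were not searched, so a window without a match does not show that the gene lacks the element.

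In Ishikawa cells 9 of the 10 genes were higher with siEfp, and AKR1C2 differed most. The median difference of the 10 was 0.47, against 0.01 over all 18417 genes, of which 52.2% were higher. Genes were counted at a log2 difference of 0.32 or more, which is a signal 25% higher, or lower by the same ratio. At this limit 6 of the 10 were higher (AKR1C1, AKR1C2, AKR1C3, GCLC, SRXN1 and GSR) and 0 were lower. Over all genes 9.81% were that much higher and 11.7% that much lower, but nothing can be read from this contrast, since it chose the genes. NQO1 lay just outside the limit before rounding, and AKR1C1, at 0.44, was the nearest inside it. AKR1C2 was the 1 gene of the 10 past 2-fold, which 0.136% of all genes, or 25 genes, were, and AKR1C3 was next at 1.64-fold. In HEC-1A cells, whose values the rule of choice did not use, 9 of the 10 were higher with siEfp. The median was 0.17 against 0.01 over all genes, of which 52.1% were higher. The genes were chosen with earlier results of these data known, so this too is a description. AKR1C3 alone was higher by 0.32 or more, 1 of 10, and 0 of 10 were that much lower, against 8.42% and 8.7% of all genes. The count of 1 in 10 in HEC-1A was thus near the share of all genes. Bulk RNA cannot tell more RNA per cell from a changed mix of cells.

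**Figure D1:**
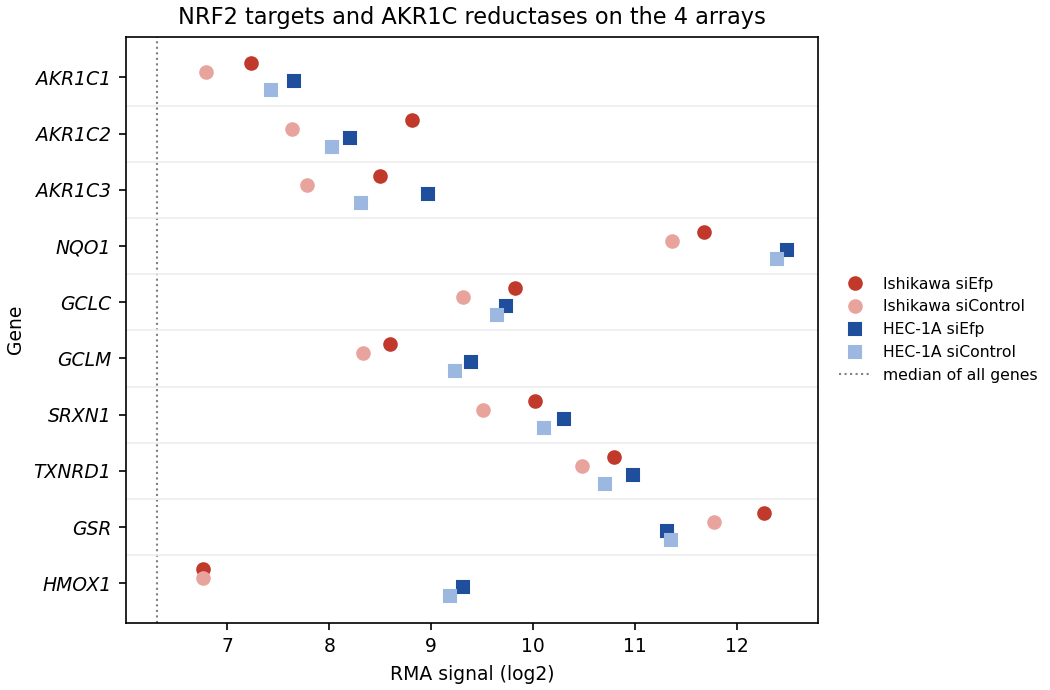
Log2 signal of each of the 10 genes on the 4 arrays, 1 point per array, with Ishikawa (circles) above HEC-1A (squares), siEfp (dark) above siControl (pale), and the median of all genes as a dotted line. AKR1C2 is highest in Ishikawa siEfp at 8.82, while HMOX1 is at 6.76 on both Ishikawa arrays and at 9.31 and 9.19 on the HEC-1A arrays.

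AKR1C2 had the largest Ishikawa difference of the 10 genes and a small one in HEC-1A. Its signal was 8.82 in siEfp and 7.64 in siControl Ishikawa cells, and 8.21 in siEfp and 8.03 in siControl HEC-1A cells. The Ishikawa siEfp array stood above the other 3, and the Ishikawa siControl array was the lowest. The difference was 1.18 (2.27-fold) in Ishikawa, where 9 genes had a larger one, and 0.18 (1.13-fold) in HEC-1A, where 4057 did. The response was larger by 1.0 on the log2 scale in Ishikawa than in HEC-1A, but the interaction of line and siRNA leaves no residual degree of freedom with 4 arrays and was not tested.

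AKR1C3, which forms active androgens and estrogens and also reduces prostaglandins, differed by nearly the same amount in both lines. It was at 8.49 in siEfp and 7.78 in siControl Ishikawa cells, a difference of 0.71 (1.64-fold), with 124 genes above it. In HEC-1A it was at 8.97 in siEfp and 8.31 in siControl cells, a difference of 0.66 (1.58-fold), with 133 genes above it. It was the gene of the 10 whose HEC-1A difference was largest, and both siEfp arrays lay above both siControl arrays.

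AKR1C1, which converts progesterone to a weaker metabolite, gave a different picture with each of its 2 probe sets. Probe set 8180376 read 8.30 in siEfp and 7.31 in siControl Ishikawa cells, a difference of 0.99 (1.98-fold), and 8.82 in siEfp and 8.54 in siControl HEC-1A cells, a difference of 0.28. Probe set 7925918 read 6.17 in siEfp and 6.27 in siControl Ishikawa cells, a difference of -0.10, and 6.48 in siEfp and 6.32 in siControl HEC-1A cells, a difference of 0.16. The sign in Ishikawa thus depended on the probe set. The gap between their Ishikawa differences was 1.09, against a median of 0.12 and a 90th percentile of 0.50 over the 598 genes with 2 probe sets, and in HEC-1A it was 0.13, against a median of 0.12. The average used for AKR1C1 was 7.23 in siEfp and 6.79 in siControl Ishikawa cells (0.44), and 7.65 in siEfp and 7.43 in siControl HEC-1A cells (0.22). AKR1C4, the liver enzyme of the cluster and not 1 of the 10, was near the bottom of all genes at 3.18 in siEfp and 2.92 in siControl Ishikawa cells, and 3.47 in siEfp and 3.13 in siControl HEC-1A cells.

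**Figure D2:**
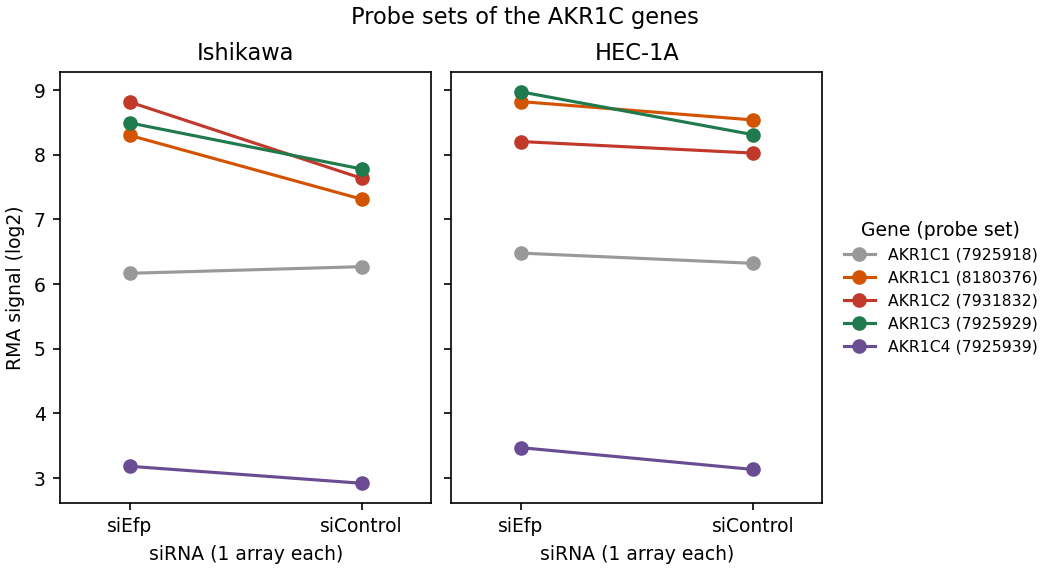
Log2 signal of each probe set of AKR1C1, AKR1C2, AKR1C3 and AKR1C4 on the 4 arrays, siEfp left of siControl within each line. The AKR1C1 probe set 8180376 differs by 0.99 in Ishikawa, while 7925918 differs by -0.10.

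Glutathione synthesis was represented by the catalytic (GCLC) and modifier (GCLM) subunits of glutamate-cysteine ligase, its first and rate-limiting enzyme. GCLC was at 9.83 in siEfp and 9.31 in siControl Ishikawa cells (0.51, 1.43-fold), and at 9.74 in siEfp and 9.65 in siControl HEC-1A cells (0.09). GCLM was at 8.60 in siEfp and 8.33 in siControl Ishikawa cells (0.27, 1.20-fold), and at 9.39 in siEfp and 9.24 in siControl HEC-1A cells (0.15). The catalytic subunit had the larger difference in Ishikawa, and neither subunit reached the limit of 0.32 in HEC-1A. GSR, which regenerates reduced glutathione from its disulfide, was at 12.27 in siEfp and 11.77 in siControl Ishikawa cells (0.50, 1.41-fold), and at 11.31 in siEfp and 11.36 in siControl HEC-1A cells (-0.04). GSR thus differed by 1.41-fold in 1 line and by next to nothing in the other.

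Thiol repair showed a similar spread. SRXN1, sulfiredoxin, which reactivates over-oxidised peroxiredoxins, was at 10.02 in siEfp and 9.51 in siControl Ishikawa cells (0.51, 1.42-fold), and at 10.30 in siEfp and 10.11 in siControl HEC-1A cells (0.20). TXNRD1, the cytosolic thioredoxin reductase, was at 10.79 in siEfp and 10.48 in siControl Ishikawa cells (0.31, 1.24-fold), and at 10.98 in siEfp and 10.71 in siControl HEC-1A cells (0.27, 1.21-fold). Like AKR1C3, TXNRD1 had differences of nearly equal size in the lines, both just under the limit.

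NQO1 and HMOX1 are widely read as markers of the NRF2 pathway, and neither reached the limit in either line. NQO1, which reduces quinones, was at 11.68 in siEfp and 11.36 in siControl Ishikawa cells (0.32), and at 12.49 in siEfp and 12.39 in siControl HEC-1A cells (0.10). HMOX1, the inducible haem oxygenase, was at 6.76 in both Ishikawa arrays (-0.01), and at 9.31 in siEfp and 9.19 in siControl HEC-1A cells (0.12). HMOX1 was the 1 gene of the 10 that was not higher with siEfp in Ishikawa.

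**Figure D3:**
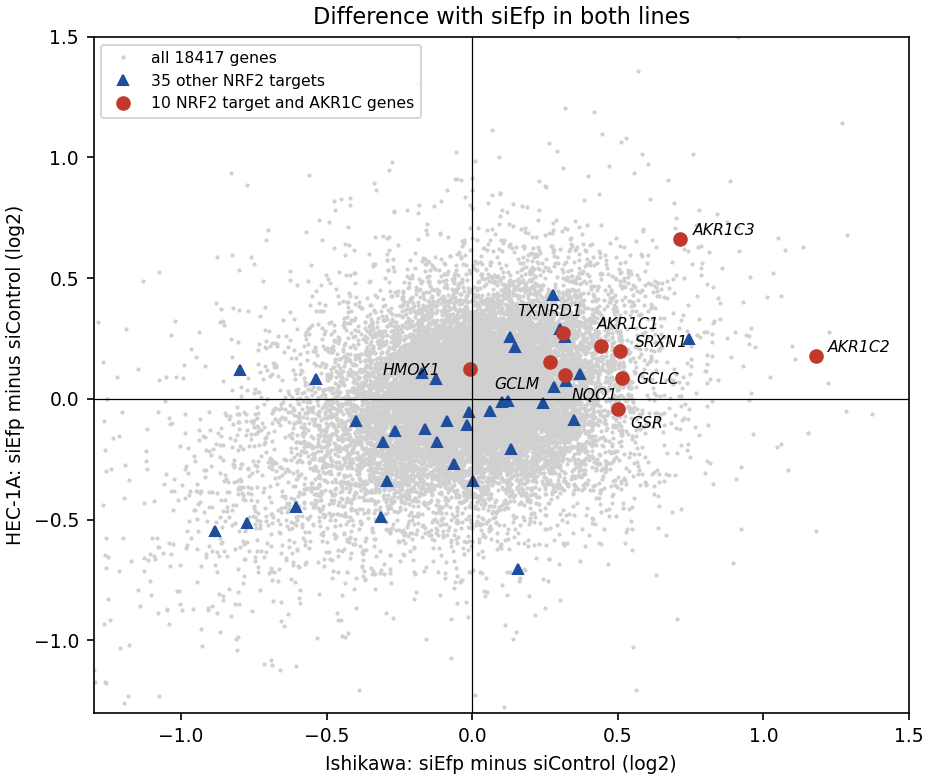
Difference siEfp minus siControl of every gene, in log2, with Ishikawa on the horizontal and HEC-1A on the vertical axis the 10 genes as circles and 35 further NRF2 targets as triangles. AKR1C2 lies far to the right at 1.18 with 0.18 in HEC-1A, AKR1C3 lies near the diagonal at 0.71 and 0.66, and 68 genes fall outside the axes.

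The levels of the 10 genes in the lines were compared with limma over all genes, with the siRNA as a block. The choice of the genes used the difference between the Ishikawa arrays and not their mean, but the same arrays form the Ishikawa side of this comparison, and that difference enters the residual of the fit. Of the 10, 7 differed at an adjusted p under 0.05, with 1 higher in Ishikawa (GSR) and 6 lower (AKR1C1, AKR1C3, NQO1, GCLM, SRXN1 and HMOX1), against 17% of all genes higher and 18.3% lower. These shares include dim genes, while all 10 lay above the median signal. With genes below the median left out, the fit called 57.7% of 9209 genes, in either direction, and again 7 of the 10. The count was thus nearer the share of the brighter genes. The arrays of a line differ in their siRNA and may share a culture, so the p-values measure only the spread between these arrays. HMOX1 had the largest difference, with means of 6.76 in Ishikawa and 9.25 in HEC-1A, a difference of -2.49 (5.61-fold lower in Ishikawa, SE 0.12, limma adjusted p = 2.51e-05). NQO1 averaged 11.52 in Ishikawa and 12.44 in HEC-1A, 1.89-fold lower in Ishikawa (SE 0.13, limma adjusted p = 0.00197). GCLM averaged 8.46 in Ishikawa and 9.31 in HEC-1A, 1.80-fold lower in Ishikawa (SE 0.12, limma adjusted p = 0.00231). For these genes the arrays of the lines did not overlap. GSR went the other way, at 12.02 in Ishikawa and 11.33 in HEC-1A, 1.61-fold higher in Ishikawa (SE 0.16, limma adjusted p = 0.0161). Without Ishikawa siEfp, on which GSR was chosen, its difference was 0.44 and no longer passed (limma adjusted p = 0.117), and it did not pass without either HEC-1A array.

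Smaller differences were found for AKR1C1, AKR1C3 and SRXN1. AKR1C1 was 1.44-fold lower in Ishikawa, at 7.01 against 7.54 in HEC-1A (SE 0.13, limma adjusted p = 0.0189). Both of its probe sets had that direction, with differences of -0.87 and -0.18. AKR1C3 was 1.42-fold lower in Ishikawa, at 8.14 against 8.64 in HEC-1A (SE 0.12, limma adjusted p = 0.0179), although its arrays overlapped between the lines. SRXN1 was 1.35-fold lower in Ishikawa, at 9.77 against 10.21 in HEC-1A (SE 0.13, limma adjusted p = 0.0453). The remaining 3 genes did not pass, with differences of 0.11 for AKR1C2 (SE 0.23, limma adjusted p = 0.776), -0.13 for GCLC (SE 0.15, limma adjusted p = 0.582) and -0.21 for TXNRD1 (SE 0.12, limma adjusted p = 0.240). For these 3 a difference between the lines was not detectable with these arrays. The calls of AKR1C3 and SRXN1 were lost with any 1 array left out, with differences from -0.86 to -0.15 for AKR1C3 and from -0.69 to -0.18 for SRXN1. The call of AKR1C1 remained only without Ishikawa siEfp, and its difference ran from -0.75 to -0.31. Without the siRNA block 4 of the 10 passed (GCLM, GSR, HMOX1 and NQO1), against 28.0% of all genes in either direction. Leaving out 1 array also removes the block and leaves 1 line with a single array. Fewer of the 7 calls then remained in every such fit, and the share of all genes called fell as well. Without Ishikawa siControl AKR1C2 was called in addition, from the 1 Ishikawa array for whose high value it was chosen. The HMOX1 difference ran from -2.55 to -2.42 over these fits, and its call remained.

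A fit of siEfp against siControl over both lines, with the line as a block, called 30 of all genes (0.163%), 1 higher and 29 lower, while 2205 had an unadjusted p under 0.05. None of the 10 genes passed (0 of 10), and 5 had an unadjusted p under 0.05, all of them higher. Their choice used the Ishikawa arrays of this fit, so that count is no support. The smallest adjusted p among them was 0.112 (AKR1C3, limma).

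The regulators of NRF2 did not differ in one direction. Of 15 listed, 14 were measured, and their median difference was 0.11 in Ishikawa and -0.12 in HEC-1A. At the limit of 0.32, 3 were higher and 3 lower in Ishikawa, and 3 higher and 4 lower in HEC-1A. Over all genes 9.81% were that much higher and 11.7% lower in Ishikawa, and 8.42% and 8.7% in HEC-1A. NFE2L2 itself was at 9.39 in siEfp and 9.47 in siControl Ishikawa cells, and at 9.77 in siEfp and 9.87 in siControl HEC-1A cells, differences of -0.07 and -0.09. KEAP1, its inhibitor, differed by -0.08 in Ishikawa and by -0.37 in HEC-1A. CUL3, the scaffold of the ligase, was 1.31-fold lower in Ishikawa and 1.26-fold lower in HEC-1A. RBX1, the RING subunit, differed by 0.08 and 0.33, and CAND1, which exchanges the receptors of cullins, by -0.35 and -0.15. BTRC, the receptor of another ligase that degrades NRF2, differed by 0.35 and 0.43. Among the small MAF partners MAFG differed by 0.20 and 0.55, and MAFF by 0.35 in Ishikawa and -0.33 in HEC-1A. SQSTM1, which binds KEAP1, differed by 0.30 and 0.18, and DPP9 by 0.35 and 0.14. BACH1 and BACH2, repressors of the same element, differed by -0.16 and 0.17 in Ishikawa and by -0.14 and 0.29 in HEC-1A. The related factors NFE2L1 and NFE2L3 differed by -0.34 and 0.13 in Ishikawa and by -0.25 and -0.42 in HEC-1A.

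Further NRF2 targets, 35 of 41 listed, had a median difference of -0.01 in Ishikawa and -0.06 in HEC-1A. In Ishikawa 4 were higher and 6 lower by 0.32 or more, and in HEC-1A 1 was higher and 7 lower. OSGIN1, an oxidative stress-induced growth inhibitor, was highest in Ishikawa (0.75, and 0.25 in HEC-1A), followed by UGDH (0.37 and 0.10), which makes the sugar used in glucuronidation. SLC48A1, a haem transporter, was lowest (-0.88 and -0.55), with the export pump ABCC2 next in Ishikawa (-0.80, and 0.12 in HEC-1A). In HEC-1A the carbonyl reductase CBR1 was lowest (-0.71, and 0.16 in Ishikawa). The median of this wider list was near that of all genes in both lines. Over all genes 9.81% were that much higher and 11.7% lower in Ishikawa, and 8.42% and 8.7% in HEC-1A. The lower counts, 6 of 35 in Ishikawa and 7 of 35 in HEC-1A, were above those shares. The higher count was near its share in Ishikawa and below it in HEC-1A. The same shares stand behind the counts of the other lists, and none of these contrasts was tested.

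The other aldo-keto reductases, 9 of 13 listed, had medians of 0.05 in Ishikawa and 0.10 in HEC-1A. By 0.32 or more, 1 was higher and 1 lower in Ishikawa, and 2 were higher and 2 lower in HEC-1A. In each line 3 of the 9 lay at or above the median gene signal. Every gene behind these counts lay below it in the line where it was counted. AKR1B10, an NRF2 target in human cells, was flat in Ishikawa (0.00) and at -0.34 in HEC-1A, and AKR1E2, which opens the AKR1C cluster, differed by 0.05 and -0.80. Among steroid-metabolising enzymes, 26 of 29 listed, the medians were -0.02 and -0.07. Here 5 were higher and 4 lower in Ishikawa, and 1 was higher and 5 lower in HEC-1A. Of these 26, 9 lay at or above the median gene signal in Ishikawa and 8 in HEC-1A. CYP1B1, which hydroxylates estradiol, was 2.36-fold lower in Ishikawa (-1.24) and differed by -0.29 in HEC-1A. HSD17B12, a ketoacyl and ketosteroid reductase, was lower in both lines (-1.05 and -0.87), and was the list gene nearest to the threshold of the fit over both lines (limma adjusted p = 0.0711). HSD17B14 (0.80 and 0.28) and CYP1A1 (0.56 and 0.36) were highest in Ishikawa.

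The glutathione enzymes, 36 of 39 listed, had medians of 0.01 in Ishikawa and -0.09 in HEC-1A, with 3 higher and 4 lower by 0.32 or more in Ishikawa and 3 higher and 5 lower in HEC-1A. CHAC1, which degrades glutathione, differed by 0.69 and 0.06, and GLO1, the first glyoxalase, by -0.64 and -0.25. The thioredoxin, peroxiredoxin and scavenger list, 28 of 30, had medians of 0.00 and 0.09, with 4 higher and 3 lower in Ishikawa and 4 higher and 1 lower in HEC-1A. GLRX, a glutaredoxin, differed by 0.43 and 0.46, and TXNIP, which binds thioredoxin, by -0.54 in Ishikawa and 0.08 in HEC-1A. Haem handling genes, 15 of 17, had medians of 0.03 and 0.07, with 2 higher and 3 lower in Ishikawa and 1 higher and 2 lower in HEC-1A. BLVRA, a biliverdin reductase that acts after HMOX1, differed by -0.77 and -0.52, while BLVRB, the other such enzyme, differed by 0.30 and 0.29. Over the 7 lists 0 of 149 genes passed the limma fit over both lines, and 30 had an unadjusted p under 0.05, 14 higher and 16 lower. With genes of below-median signal removed, 7 list genes passed, while that fit called 615 of all 9209 genes left (6.68%). How many list genes were left in it was not counted, so the 7 is not read as a result about the lists. In all, 20.1% of the list genes and 12.0% of all genes were under that unadjusted limit.

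**Figure D4:**
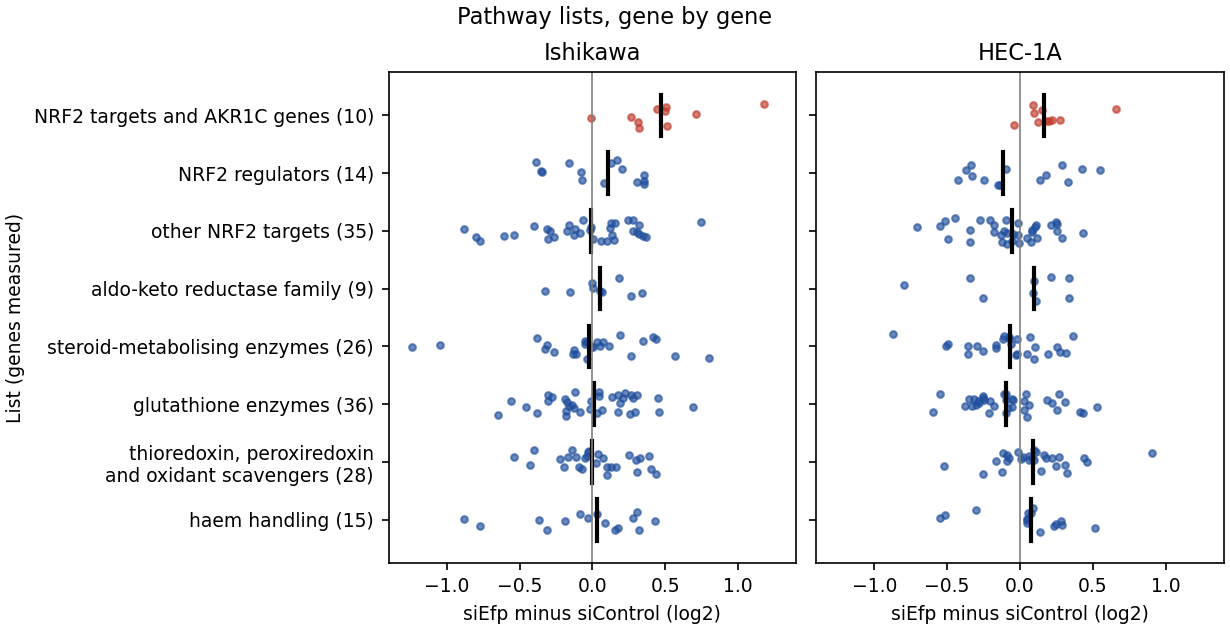
Difference siEfp minus siControl, in log2, of each gene of the 10 and of the 7 pathway lists, with Ishikawa left of HEC-1A, 1 point per gene and a black bar at the median of each list. The lists centre near 0, with medians from -0.02 to 0.11 in Ishikawa and from -0.12 to 0.10 in HEC-1A, while the 10 genes have medians of 0.47 and 0.17. The 10 genes were chosen on the Ishikawa values and left out of the lists, so nothing can be read from the Ishikawa contrast. The HEC-1A contrast is a description, since the choice was made with earlier results of these data known.

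The genes whose 4 values ran most like those of AKR1C2 were found by the Euclidean distance between centred log2 signals, over the 9208 other genes at or above the median signal. They were KLHDC8B (distance 0.25, differences 0.96 in Ishikawa and 0.29 in HEC-1A), AP1M1 (0.28, 0.96 and 0.51), SPA17 (0.30, 1.06 and 0.43), SPIRE1 (0.31, 0.81 and 0.15) and FAM234A (0.34, 0.77 and 0.43). With 4 arrays such likeness is a description only. AP1M1 encodes a subunit of a clathrin adaptor and SPIRE1 an actin nucleator, and none of the 5 was on the lists.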

How the data were processed

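The 4 arrays were assigned to their groups by the labels. The authors deposited log2 signals per probe set, for which the submitters' processing notes name RMA and Affymetrix Expression Console, while tool versions and build were not given in the sources used. RMA subtracts background, gives all arrays the same distribution and combines the probes of a set, so a shift common to every gene is lost and differences of dim probe sets shrink. The array named in the methods is the Human Exon 1.0 ST, yet the probe set numbers belong to the Human Gene 1.0 ST.

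Of 33297 probe sets, 19460 had exactly 1 gene symbol in GEO's platform annotation, 1754 had several and 12083 had none. Probe sets of a gene were averaged, which gave 18417 genes, 769 of them with several probe sets. No probe set with several symbols held 1 of the 10 genes. The RefSeq table (GRCh38.p14) held the gene IDs of 19429 probe sets and changed 0 symbols. No coordinate of a probe is given.

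The 10 genes and all lists were chosen with earlier results of these data known. The genes named are all 10, TRIM25, AKR1C4 as part of the cluster, every NRF2 regulator and the 5 nearest to AKR1C2. Also named are up to 2 genes at each end of each list in each line (from these, those shown were picked for the text). CDH1 and PAX8 are from the marker check. HSD17B1 and ABCC4 were named after their values had been seen. Within each line siControl was subtracted from siEfp and genes were counted at a log2 difference of 0.32, with no test at 1 array per condition.

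Levels of the lines (siRNA as a block) and siEfp over both lines (line as a block) were tested with limma 3.58.1 in R 4.3.3 over all 18417 genes, with 1 residual degree of freedom and Benjamini-Hochberg adjusted p under 0.05. The number of arrays limits the precision. The gap between the probe sets of a gene is read on the same arrays, so it does not measure the spread between arrays or cultures. Other steps used Python 3.11.15, pandas 2.3.3 and Biopython 1.88. Promoter windows are from RefSeq. Alternatives tried were the brightest probe set, no block, an intensity trend, an adjusted p under 0.1, a count at 1.5-fold, centred differences, quantile normalization of the deposited values, removal of genes under the median signal, and leaving out each array. A single difference was called moved at a shift of 0.1 or more in log2.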

Additional observations from a re-analysis of the deposited data

Results flagged for a closer look

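For 5 genes, opposite signs of the difference siEfp minus siControl in the lines were flagged. The 10 genes were flagged at any size, and list genes only when they differed by 0.32 or more in both lines. List genes of opposite sign with a smaller difference in either line were left out. The share of all genes with opposite signs was not counted. With 1 array per condition, none of the differences between the lines was tested. Among the 10 genes, GSR differed by 0.50 in Ishikawa and by -0.042 in HEC-1A, and HMOX1 by -0.00625 in Ishikawa and by 0.12 in HEC-1A. The smaller value of each lies under the median gap of 0.12 between the differences of the probe sets of a gene. That gap is read within the same arrays and is not the error of a difference. Among the list genes that differed by 0.32 or more in both lines, MAFF, a small MAF protein, differed by 0.35 in Ishikawa and by -0.33 in HEC-1A. KCNAB1, a potassium channel subunit of the aldo-keto reductase fold, differed by -0.32 in Ishikawa and by 0.34 in HEC-1A. MAFF, at 4.97 to 6.27, and KCNAB1, at 4.16 to 5.77, lay below the median gene signal of 6.31 on every array. HSD17B1, which makes estradiol from estrone, differed by 0.41 in Ishikawa and by -0.36 in HEC-1A.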

How the results depend on the processing

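The higher count of the 10 genes in Ishikawa was 6 at the limit of 0.32 and 2 at 1.5-fold, and 8 after the values were quantile normalized again. The count in HEC-1A was 1 under every alternative tried. With the brightest probe set, AKR1C1, the only gene of the 10 with 2 probe sets, differed by 0.99 in Ishikawa instead of 0.44. It was the 1 single-gene difference between the siRNAs that moved. The 39 others in Ishikawa and all 40 in HEC-1A stayed within 0.1, but most of them could not have moved. All 10 genes lay above the median signal, and centring shifted every gene by only 0.01. For the genes with 1 probe set, only the second quantile normalization could have moved a difference. Of the comparison of the lines, 7 of 10 passed in the fit with the siRNA block and 4 without it, and 1 to 5 when each array was left out in turn. The AKR1C2 difference between the lines turned to -0.48 without Ishikawa siEfp and was 0.70 without Ishikawa siControl, where the line is left with the 1 array for whose high value the gene was chosen, so its p is not given, and that of GCLC was -0.38 without Ishikawa siEfp and turned to 0.13 without Ishikawa siControl. Over the single-gene line values 78 kept their side of the threshold and their direction, 19 lost the call, 1 (that of AKR1C2) gained it and 2 reversed. Part of the 78 was fixed in advance. At the looser limit no call could be lost, and that limit, the missing block and the trend left every difference unchanged. Most of the lost calls came from leaving out an array. With 1 array left out, the spread comes from the other line and the lone array is assumed to vary like it. HMOX1 passed under all alternatives.

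For siEfp over both lines, 0 of 149 list genes passed, against 2 with an intensity trend (HSD17B12 and SLC48A1), 1 at an adjusted p under 0.1 (HSD17B12) and 7 when the genes of below-median signal were removed. These 7 were ABCC4, BLVRA, GPX8, HSD17B12 and SLC48A1, all lower, and CYP1A1 and GLRX, both higher. Leaving out dim genes reduces the number tested to 9209. Over all genes the same fit called 30, against 182 with the trend, 85 at the looser limit, 615 without the dim genes and 0 without the line block. The labels give no replicate numbers, so the only pairing of arrays is by line, which is the block of this fit. The arrays hold no repeat of any condition, so the error of a single difference cannot be measured from them.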

Other observations

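Some genes of the lists differed far more between the lines than with siEfp. TXNIP, which binds thioredoxin, was at 9.25 in siEfp and 9.78 in siControl Ishikawa cells, against 4.30 in siEfp and 4.22 in siControl HEC-1A cells. CBR1, a carbonyl reductase, was at 8.47 in siEfp and 8.31 in siControl Ishikawa cells, against 4.23 in siEfp and 4.93 in siControl HEC-1A cells. SESN3, a sestrin, was at 8.01 in siEfp and 8.05 in siControl Ishikawa cells, and in HEC-1A at 5.73 in siEfp and 4.83 in siControl cells, the largest difference with siEfp of its list in HEC-1A (0.91). AKR1E2, at the edge of the AKR1C cluster, was at 6.89 in siEfp and 6.84 in siControl Ishikawa cells, and at 4.31 in siEfp and 5.11 in siControl HEC-1A cells. These genes were singled out after their values had been seen.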
